A study of Mus musculus with 22 samples.

Results

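Glutathione S-transferases (GSTs) were followed across the organs of mice without tumours, with attention to the kidney proximal tubule. The 9 genes were Gsta2, Gsta3, Gsta4 and Gm10639 (alpha class), Gstm1 and Gstm2 (mu class), Gstp1 (pi class), Gstt1 (theta class) and Gsto1 (omega class), out of 31053 gene entries in the matrices. They were chosen on values measured in these data: their UMI counts, scaled to a common total of UMIs in the same barcodes (CPM), by library and cell class, and by genotype label within barcodes that held the tubule transcript Miox. Those levels are therefore described here, and for genotype within Miox-positive barcodes no test of the 9 genes is given, only how many of all genes a fit called. The 9 genes were tested between tubule segments, between blood and tissue, by genotype in other classes, and by sex. The sex test in Miox-positive barcodes used the same library values as the choice, though not the sex labels, and the tissue side of the comparison with blood used levels that chose the genes. Levels in the hepatocyte, airway and fibroblast classes were part of the choice too. The genotype and sex tests there used those values, though the choice had not used those labels. The segment test used barcodes of the tubule class, whose levels were also part of the choice, though not split by segment.

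GSTs join the tripeptide glutathione to electrophilic molecules, which makes drugs, toxins and products of lipid peroxidation soluble and ready for export. The alpha, mu, pi and theta classes are mainly soluble enzymes that act as dimers, and the omega class favours thiol transfer and reduction. Liver and kidney tubule are rich in them, since both take up and clear foreign compounds. Many GST genes are induced by the transcription factor NRF2 through a short DNA motif, the antioxidant response element.

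The data were single-cell 3′ RNA counts, where each barcode marks a droplet and each UMI a captured transcript. All mice carried Prom1-CreERT2 and Rosa26ZSG, and carried the label Nalcn-wt, Nalcn-het or Nalcn-null. Nalcn encodes a sodium leak channel. The recombinase is driven by Prom1, so loss of Nalcn is limited to Prom1-expressing cells and their progeny and is not expected in every cell of an organ. By the labels, tissue libraries pooled kidney, lung, liver, stomach and either epididymis (males) or uterus (females), marked with hashtag antibodies, and ntCZC libraries held blood cells sorted for the ZSG lineage tag. Groups were tissue wt (n = 5 libraries, 571 to 654 days old, 3 labelled male), tissue het (n = 2, both male and 551 days) and tissue null (n = 2, a male of 552 days and an animal labelled female of 611 days). The ntCZC groups were wt (n = 2, both male, 571 and 608 days), het (n = 4, 3 male, 551 to 649 days) and null (n = 4, 1 male, 551 to 613 days), so that sex differed between them, and a wt library of blood mononuclear cells (PBMC) came from a male of 120 days. In a further pair of tissue libraries the genotype in the title differed from that under strain, and both stayed outside all groups. Tissue null 3, the null library labelled female, took its genotype from the strain entry, and every other library in a group from its title. The labels do not tie libraries to separate mice, so n counts libraries and every p-value measures the spread between libraries.

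Tissue libraries with a group held 8571019 to 139793927 UMIs in 1856 to 27857 barcodes, and ntCZC libraries 161541 to 2600526 UMIs in 50 to 621 barcodes. Nalcn itself was almost undetected, with 0 to 18 UMIs in a tissue library and 0 UMIs in each ntCZC library, and in the libraries labelled null it was at 0.272 and 0.386 CPM against 0 to 0.204 CPM in wt, so the counts could not check the genotype labels. Tissue null 3 went against part of its label: it was labelled female with uterus but held 2464 barcodes with the markers of epididymis. In its tubule-gated barcodes Xist was at 2511 CPM and the Y-linked Ddx3y at 3.54 CPM, against 49.2 to 90.2 CPM of Ddx3y in the libraries labelled male and 0 in wt 4 and wt 5, labelled female, so these barcodes went with the label. In its fibroblast-gated barcodes Xist was at 1165 CPM and Ddx3y at 149 CPM, against 174 to 252 CPM of Ddx3y in libraries labelled male. The library was fitted as female in every class. Some results that rest on it are also given without it. Barcodes were assigned to a class when they held at least 3 markers of a list and more than of any other list, which follows detected transcripts and not the organ. The genes with the highest fold in each gate included markers of its list: Slc34a1 (in 95.7% of proximal tubule-gated barcodes), Alb (96.3% of hepatocyte-gated), Scgb1a1 (99.7% of club-gated) and Dcn (90.9% of fibroblast-gated). Libraries shared at most 2.6% of the smaller library's barcodes.

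Of the 9 genes, 3 lie in the alpha-class cluster on chromosome 9 of GRCm38: Gsta4 (78182774 to 78209349, plus strand), Gm10639 (78289923 to 78305525, plus strand) and Gsta2 (78331018 to 78355788, minus strand). Between Gsta4 and Gm10639 lie Gsta1 and Gm3776. Gm10639 is annotated as protein coding, and its transcript was 98.3% identical to that of Gsta2 over 869 aligned bases. Gsta3 is on chromosome 1, Gstm1 and Gstm2 are neighbours on chromosome 3, Gstt1 is on chromosome 10, and Gstp1 and Gsto1 are on chromosome 19. The stretches upstream of the RefSeq start sites (GRCm38.p6) of Gm10639, its paralogs and Gstp1 are printed below. Their part in the levels given here was not tested. Capitals mark bases that are changed or added relative to Gm10639 (bases it has and the other lacks leave no mark), and in Gstp1 they mark the motif TGAGNNNGC, a core of the antioxidant response element.
Gm10639 (chr9:78289778-78289927, plus strand): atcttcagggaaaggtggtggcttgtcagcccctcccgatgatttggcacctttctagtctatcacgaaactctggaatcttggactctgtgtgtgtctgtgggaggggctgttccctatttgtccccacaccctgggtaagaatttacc
Gm3776 (chr9:78256977-78257128, plus strand): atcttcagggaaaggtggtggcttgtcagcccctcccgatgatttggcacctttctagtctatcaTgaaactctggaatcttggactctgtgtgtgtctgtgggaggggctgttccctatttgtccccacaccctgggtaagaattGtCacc
Gsta1 (chr9:78230504-78230655, plus strand): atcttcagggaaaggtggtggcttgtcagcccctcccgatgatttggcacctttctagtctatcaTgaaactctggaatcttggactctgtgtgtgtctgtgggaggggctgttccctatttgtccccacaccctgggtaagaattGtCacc
Gsta2 (chr9:78347164-78347313, minus strand): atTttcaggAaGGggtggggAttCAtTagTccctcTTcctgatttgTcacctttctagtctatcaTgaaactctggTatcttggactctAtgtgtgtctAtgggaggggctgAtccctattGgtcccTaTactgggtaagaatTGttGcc
Gstp1 (chr19:4037913-4038062, minus strand): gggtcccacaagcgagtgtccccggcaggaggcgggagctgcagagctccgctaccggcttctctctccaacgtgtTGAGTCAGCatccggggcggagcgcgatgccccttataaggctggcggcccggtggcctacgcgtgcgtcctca
The printed stretches of Gm3776 and Gsta1 were identical to each other and had 3 changed or added bases relative to Gm10639, and that of Gsta2 had 23, with missing bases not counted. When the 250 bases upstream were aligned with those of Gm10639, and gaps were left out, 246 of 248 aligned bases were identical for Gm3776 (99.2%), 233 of 235 for Gsta1 (99.1%) and 178 of 217 for Gsta2 (82.0%).

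A promoter was given for 8 of the 9 genes (not Gsta4). Searched on both strands of those 250 bases, TGACNNNGC was found in Gsta3 and in 10.1% of 27025 promoters, and TGAGNNNGC was found in Gstt1 and Gstp1 and in 14.2% of promoters. Either core was present in 3 of the 8 genes and in 22.8% of promoters. TATAAA was found in Gsta2 and in 13% of promoters. A match is a run of letters and not a measured binding site.

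Near-identical copies limit how well reads can be placed. Over the last 500 bases of the transcript, where 3′ reads fall, 8.78% of the 91-base windows of Gm10639 were also in Gsta2, and 9.76% of those of Gsta2 were in Gm10639, Gm3776 or Gsta1. For Gstp1 the share was 68.0%, all with Gstp2 or the pseudogene Gstp-ps, so its counts could be lowered or mixed. For the other 6 genes no window was shared. Gsta1, used below for comparison, shared 77.6% of its windows with Gm3776 or Gsta2.

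Gsta2, a main alpha-class enzyme of liver and kidney, was highest in the proximal tubule. In proximal tubule-gated barcodes its level ran from 184 to 674 CPM with a median of 374 (n = 9 tissue libraries), and in hepatocyte-gated barcodes, the next class, from 19.6 to 99.2 CPM with a median of 51.6 (n = 8). These ranges did not overlap, and of the 108 pairs of neighbouring classes in the orders of the 9 genes this was the only pair that did not. Within a library, Gsta2 was 7.13 to 32.6 times higher in tubule-gated than in leukocyte-gated barcodes, with a median ratio of 10.9, and higher in 9 of 9 libraries. Leukocytes are used here as cells in which a tubule enzyme should be absent. Their level gives only a rough view of free RNA, whose share in each class was not estimated. In wt libraries the hepatocyte-gated level of Gsta2, 19.6 to 36.5 CPM, was within the leukocyte-gated range of 18.5 to 42.7 CPM. In het and null libraries these ranges were 66.8 to 99.2 and 20.6 to 62.6 CPM. Barcodes with fewer than 1000 UMIs were left out of the shares that follow, among them 605 tubule-gated and 1486 leukocyte-gated barcodes of tissue null 2. Thinned to 1000 UMIs, 13.7% to 43.4% of the remaining tubule-gated barcodes of a library held a Gsta2 UMI. Among the remaining leukocyte-gated barcodes 1.73% to 6.70% did. Before thinning these shares were 35.7% to 73.7% and 3.58% to 15.5%. Median depth was 1166 to 10879 UMIs in tubule-gated and 1166 to 4407 UMIs in leukocyte-gated barcodes.

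Gm10639, a predicted gene closest in sequence to Gsta2, also had its highest median in the proximal tubule. It lay between 3.22 and 60.5 CPM in tubule-gated barcodes with a median of 12.9 CPM (n = 9). In hepatocyte-gated barcodes it lay between 0 and 5.51 CPM, and the ranges overlapped. It was at 0 CPM there in all 4 wt libraries and at 4.17 to 5.51 CPM in the 4 het and null libraries. Its median there, 2.09 CPM, thus fell to 0 when 1 of the latter, tissue null 3, was left out. The ratio of tubule to leukocyte level within a library ran from 3.79 to 51.0 with a median of 11.4. In leukocyte-gated barcodes it was at 0.554 to 3.79 CPM. Among barcodes with at least 1000 UMIs, thinned to 1000, 0.488% to 6.23% of tubule-gated and 0% to 0.398% of leukocyte-gated barcodes held a UMI of it.

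Gsta3, which also acts in steroid isomerisation, was spread over several classes. Its median was 356 CPM in mesothelial-gated barcodes, where it ran from 116 to 636 CPM (n = 6). The median was 199.6 CPM in hepatocyte-gated, 143 CPM in club-gated and 86.7 CPM in proximal tubule-gated barcodes, and each of these ranges overlapped the next. Within a library it was 5.55 to 14 times higher in tubule-gated than in leukocyte-gated barcodes (9 of 9 libraries). Gsta4, whose enzyme is specialised for the lipid peroxidation product 4-hydroxynonenal, had its highest median in gastric-gated barcodes at 788 CPM (229 to 1786, n = 9), followed by club-gated barcodes at 289.5 CPM (79.6 to 811, n = 6). In tubule-gated barcodes Gsta4 ran from 28.9 to 129 CPM.

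Among the mu-class genes, Gstm1 was highest in airway cells. It ran from 1055 to 1324 CPM in ciliated-gated barcodes (n = 8) and from 403 to 2347 CPM in club-gated barcodes (n = 6), whose median fell from 896 to 576 CPM without tissue null 3. In fibroblast-gated barcodes Gstm1 ran from 291 to 543 CPM with a median of 448 CPM. Gstm2 had its highest median in epididymal-gated barcodes, at 549.6 CPM (225 to 976, n = 7), and in proximal tubule-gated barcodes it was at 5.17 to 25.7 CPM. These neighbouring mu-class genes thus had their highest medians in different gates.

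Gsto1, the omega-class thiol transferase, had the same leading classes as Gsta4: it was highest in gastric-gated barcodes at a median of 1216 CPM (462 to 2106, n = 9), then in club-gated barcodes at 329 CPM (145 to 765). Gstt1 had its highest median in mesothelial-gated barcodes at 109 CPM (44.1 to 139) and next in distal nephron-gated barcodes at 89.4 CPM (70.2 to 129). For Gstp1, the pi-class enzyme, the medians in mesothelial-gated and ciliated-gated barcodes were the highest, at 92.5 and 88.8 CPM, with ranges of 30.1 to 255 and 55.9 to 311 CPM. In fibroblast-gated barcodes the other 8 genes had medians of 101 CPM for Gstm2, 72.0 CPM for Gstt1, 57.8 CPM for Gsta3, 44.1 CPM for Gstp1, 39.5 CPM for Gsto1, 31.8 CPM for Gsta2, 26.5 CPM for Gsta4 and 1.38 CPM for Gm10639. For Gsta2, Gsta4 and Gm10639 the fibroblast median was within the range of the leukocyte-gated barcodes of the same libraries, which was 18.5 to 62.6 CPM for Gsta2, 8.08 to 34.6 CPM for Gsta4 and 0.554 to 3.79 CPM for Gm10639. The plot by class shows these orders for all libraries.

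**Figure D1:**
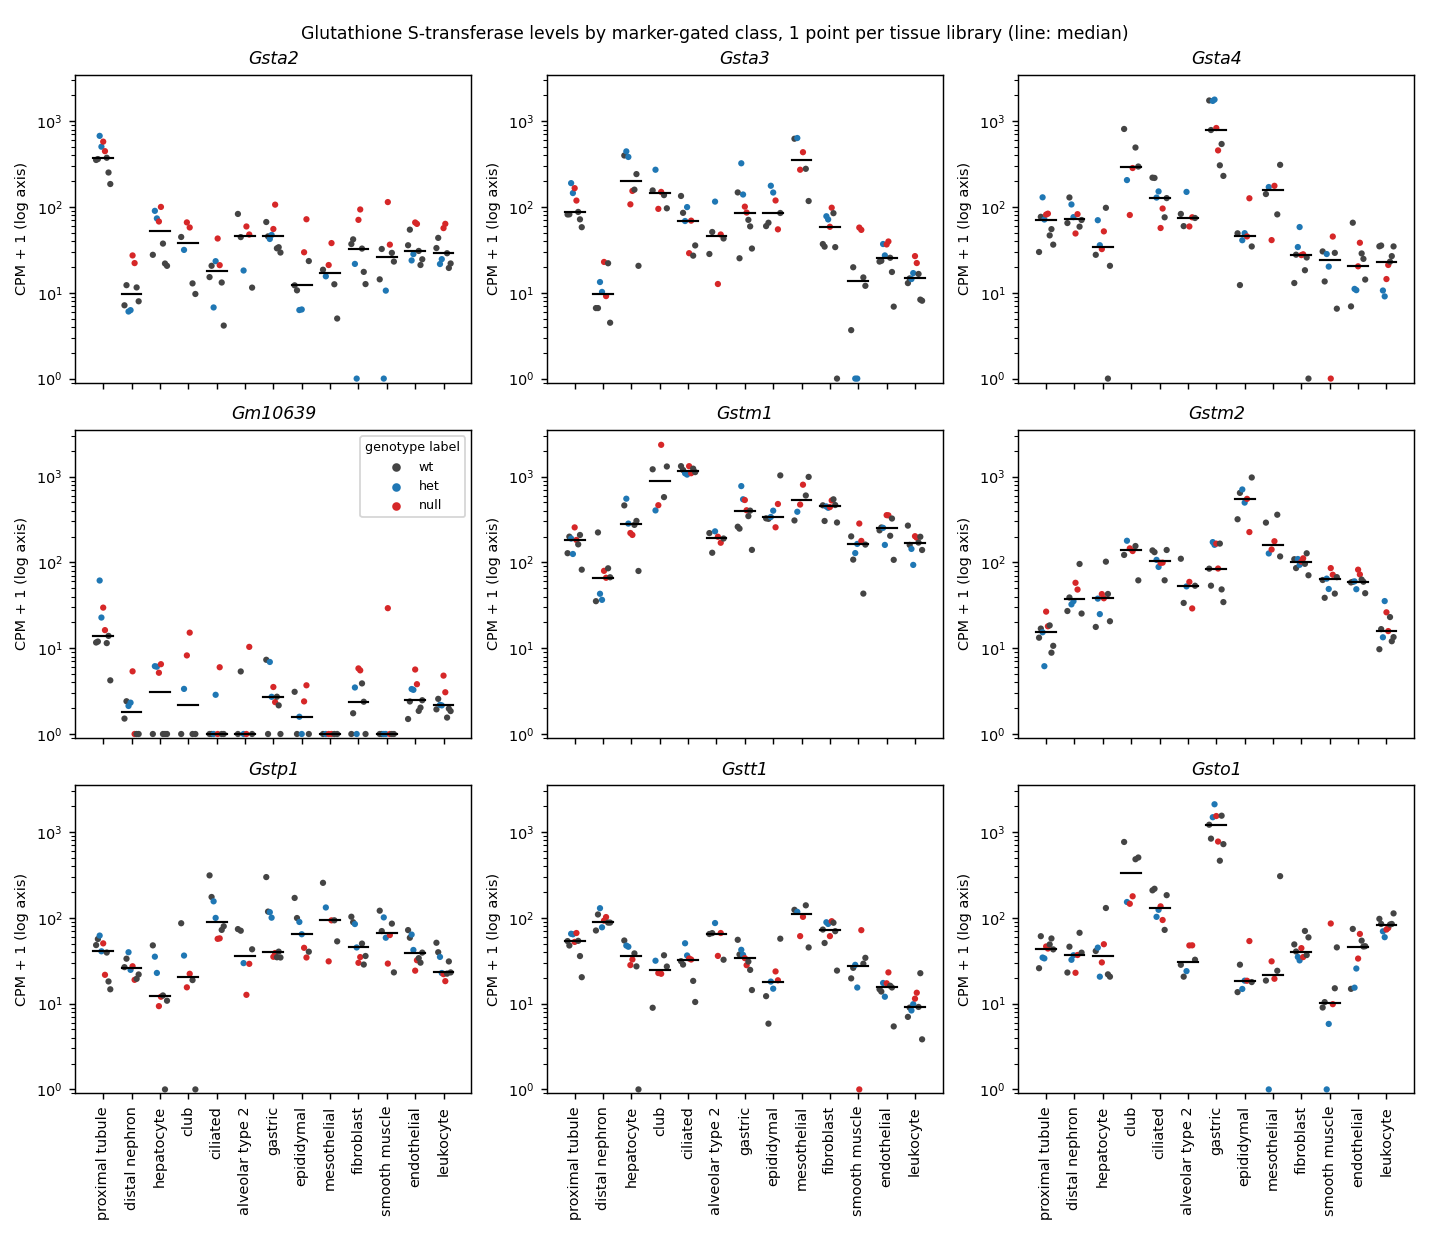
Each panel shows 1 gene, with marker-gated classes on the x axis and CPM + 1 on a log y axis; each point is a tissue library with at least 20 barcodes of the class, coloured by genotype label, and the line is the median. Gsta2 in proximal tubule-gated barcodes (184 to 674 CPM) stands clear of every other class, while Gsta4 and Gsto1 peak in gastric-gated and Gstm2 in epididymal-gated barcodes.

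Within Miox-positive barcodes, 5 of the 9 genes lay higher in every library labelled het or null (n = 4) than in every wt library (n = 5). These were Gsta2, Gsta3, Gsta4, Gm10639 and Gstm2, and over all 15141 genes 4.33% did the same. Since this contrast chose the genes, the values are a description and nothing is read from the count. Miox encodes the tubule enzyme myo-inositol oxygenase, and a Miox-positive barcode holds at least 1 Miox UMI and at least 200 genes. The edgeR fit over all genes called 0.0% of 15141 genes in het against wt and in null against wt, with 1315 and 1077 genes at an unadjusted p under 0.05, and DESeq2 called 100 and 132.

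Gsta2 was at 245, 169.5, 202, 147 and 131 CPM in wt replicates 1 to 5, at 339.6 and 389.8 CPM in het, and at 283 and 292 CPM in null. The mean was 326 ± 49.1 CPM (SD, n = 4) in het and null and 179 ± 45.4 CPM (SD, n = 5) in wt, a ratio of 1.82. The lowest of the 4 was above the highest wt library, and the 3 male wt libraries alone ran from 169.5 to 245 CPM.

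Gm10639 was at 7.52, 5.45, 5.07, 8.50 and 2.96 CPM in wt replicates 1 to 5, on 7 UMIs in replicate 5 and at least 46 UMIs in the others. It was at 29.99 and 18.8 CPM in het and at 16.3 and 9.60 CPM in null. The ratio of means was 3.17, and null replicate 3 lay just above wt replicate 4. With at least 2 Miox UMIs required, the groups overlapped, with wt up to 16.5 CPM and the others from 14.1 CPM.

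Gsta3 was at 62.9, 43.5, 60.9, 45.1 and 38.9 CPM in wt replicates 1 to 5, at 135 and 126 CPM in het and at 108 and 89.2 CPM in null, with a ratio of means of 2.28. Gsta4 ran from 27.9 to 65.3 CPM in wt and from 84.0 to 115 CPM in the other 4 libraries, a ratio of means of 1.81. Both alpha-class genes were thus higher in each of the 4 libraries, as Gsta2 was. Gstm2 ran from 14.8 to 40.2 CPM in wt and from 47.0 to 120.0 CPM in the others, a ratio of means of 3.22. For Gstt1 the ranges of 13.5 to 39.99 and 38.9 to 51.4 CPM overlapped, and Gstm1, Gstp1 and Gsto1 overlapped broadly with ratios of means of 1.35, 1.09 and 1.04.

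Miox-positive barcodes were not tubule cells alone. Of them, 31.8% to 51.4% per library were proximal tubule-gated in wt and 26.0% to 58.0% in het and null. Leukocyte-gated shares were 23.2% to 44.8% in wt and 9.75% to 21.5% in het and null, without overlap. Median depth was 1626 to 7906 UMIs in wt and 950 to 3277 UMIs in het and null. The part of cell makeup and depth in the levels was not tested. Epididymal markers moved with the labels: their summed level in Miox-positive barcodes was 1.27 to 2565 CPM in wt, 4186 to 6196 CPM in het and 11133 to 11604 CPM in null. Gstm2 was highest in epididymal-gated barcodes, and the part of epididymal RNA in its level was not tested. Leukocyte markers summed to 1544 to 3483 CPM in wt, 619 to 1234 CPM in het and 1291 to 1606 CPM in null. Median mitochondrial shares were 18.2% to 57.4% in wt and 26.6% to 42.7% in het and null libraries. Fewer tubule cells and less RNA per tubule cell cannot be told apart in such sums. Genotype cannot be told apart from the age of the het libraries, 551 days against 571 to 654 days in wt. Both het libraries were male, as were some wt libraries.

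In proximal tubule-gated barcodes, whether or not Miox was detected, 3 of the 5 had separate ranges: Gsta2 at 184 to 374 CPM in wt against 447 to 674 CPM, Gsta3 at 57.1 to 86.7 against 118 to 189 CPM, and Gm10639 at 3.22 to 12.9 against 15.2 to 60.5 CPM. Over the same 15141 genes, 1.95% did. Gsta4 overlapped through wt replicate 2 (75.8 CPM) and het replicate 2 (70.5 CPM). Gstm2 lost the difference, at 7.86 to 17.4 CPM in wt and 5.17 to 25.7 CPM in the others. There the epididymal markers summed to 0 to 228 CPM in wt, 109.9 to 176 CPM in het and 791 to 817 CPM in null. Without tissue null 3 the same genes had separate ranges among Miox-positive barcodes. TMM scaling of the sums ended the separation of Gsta2 in Miox-positive barcodes, and a limit of 25% mitochondrial UMIs that of Gsta4.

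**Figure D2:**
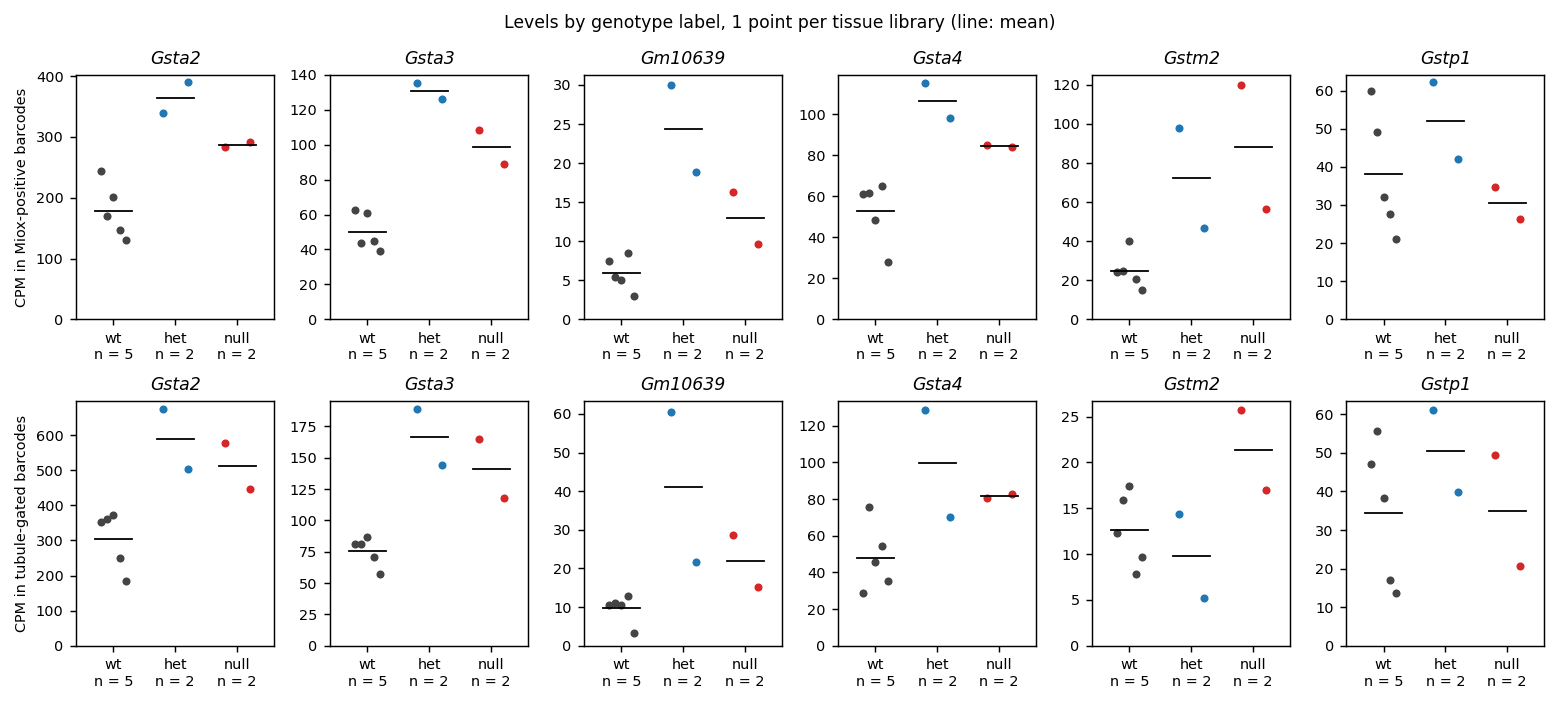
CPM (y axis, from 0) of 6 genes by genotype label (x axis) in Miox-positive barcodes (upper row) and proximal tubule-gated barcodes (lower row); each point is a tissue library and the line is the group mean. Gsta2, Gsta3 and Gm10639 were higher in all 4 het and null libraries in both rows, whereas Gstm2, at 47.0 to 120.0 CPM against 14.8 to 40.2 CPM in the upper row, overlapped in the lower row.

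Along the proximal tubule of libraries labelled male, the members split. Late-segment barcodes were richer in Gstp1, Gstm1, Gsta4 and Gsta3 and poorer in Gm10639 and Gstm2, whereas the test called no difference for Gsta2, Gstt1 and Gsto1. Early barcodes were tubule-gated with a UMI of Slc5a2 or Slc5a12 (sodium cotransporters of the convoluted part) and none of Slc7a13. Late barcodes had a UMI of Slc7a13, an amino acid transporter of the straight part, and no UMI of Slc5a2 or Slc5a12. Both came from the same library, in 4 libraries labelled male (wt 1, 2 and 3 and null 2), with 406 to 3211 early and 25 to 399 late barcodes each. Libraries labelled female held 0 (wt 4 and wt 5) and 3 (null 3) late barcodes beside 110 to 2333 early ones. Slc7a13 in Miox-positive barcodes was at 0 to 0.422 CPM in them and at 1.55 to 35.4 CPM in males. The results by segment thus cover male libraries only. The comparison was added after the data had been seen, and the edgeR quasi-likelihood test with library as block called 27.2% of 10448 genes, 13.4% higher and 13.7% lower in late barcodes. That split of 1405 higher and 1432 lower genes became 1265 and 2036 with RLE scaling. Of the 9 members it called 6, of which 4 were higher and 2 lower.

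Gstp1 had the largest rise of the 9. It was at 166, 191, 161 and 93.2 CPM in late barcodes of wt 1, wt 2, wt 3 and null 2, against 30.7, 30.6, 20.4 and 27.5 CPM in early barcodes of the same libraries. Every late value was above every early value, and the fitted log2 difference was 2.21 (SE 0.18, adjusted p = 4.51e-09). Gstm1 was at 378, 529, 712 and 615 CPM in late and at 84.5, 129, 102 and 170.1 CPM in early barcodes, a log2 difference of 1.79 (SE 0.19, adjusted p = 1.83e-07). The calls of Gstp1 and Gstm1 held under all 10 alternatives run.

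Gsta4 was at 74.9, 143, 127 and 205 CPM in late and at 22.3, 54.3, 35.4 and 67.0 CPM in early barcodes, a log2 difference of 1.25 (SE 0.16, adjusted p = 2.9e-06). It was higher in 4 of 4 libraries, but the call was lost when barcodes were limited to 25% mitochondrial UMIs, which left only 2 libraries (log2 difference 0.57, adjusted p = 0.328). Gsta3 was at 222, 197, 153 and 205 CPM in late and at 63.5, 64.5, 63.8 and 148 CPM in early barcodes, a log2 difference of 1.07 (SE 0.22, adjusted p = 0.000878). In null 2 the early level of Gsta3 was already above that of the wt libraries. Its call was lost without wt 1 (log2 difference 0.78, adjusted p = 0.0637) and without wt 2 (0.83, adjusted p = 0.0872).

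Gm10639 went the other way. It was at 2.48, 6.92, 0 and 18.6 CPM in late and at 11.8, 13.4, 15.6 and 34.4 CPM in early barcodes of wt 1, wt 2, wt 3 and null 2. Late values rested on 6, 20, 0 and 1 UMIs. Gm10639 was lower in late barcodes of all 4 libraries, with a log2 difference of -1.72 (SE 0.31, adjusted p = 0.000201), and the call held under all 10 alternatives run. Gstm2 was at 4.14, 6.92, 0 and 0 CPM in late and at 7.43, 9.97, 12.9 and 18.9 CPM in early barcodes, a log2 difference of -1.05 (SE 0.33, adjusted p = 0.0196). This call was lost under DESeq2 (adjusted p = 0.0678) and without wt 1 (0.154) or wt 2 (0.0918). In wt 3 and null 2, late barcodes numbered only 25 and 26.

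Gsta2 was at 634, 612, 525 and 447 CPM in late and at 324, 343, 353 and 510.2 CPM in early barcodes, higher in late barcodes of the 3 wt libraries and lower in null 2. The log2 difference after TMM scaling was 0.19 (SE 0.21, adjusted p = 0.539), which passed the threshold only with the mitochondrial limit (0.88, adjusted p = 0.00406). Gstt1 had a log2 difference of 0.22 (SE 0.15, adjusted p = 0.313) and Gsto1 of -0.19 (SE 0.20, adjusted p = 0.501), which passed with the same mitochondrial limit (-0.90, adjusted p = 0.00647). Median mitochondrial shares were 23.2% to 30.9% in late and 38.2% to 53.1% in early barcodes, and their part in these results was tested only by the limit of 25% and by leaving mitochondrial genes out, which called the same number of members, 6. Summed leukocyte markers were at 71.6 to 454 CPM in late and 73.0 to 399 CPM in early barcodes. Hepatocyte markers were at 425, 324, 881 and 950.3 CPM in late barcodes of wt 1, wt 2, wt 3 and null 2. In early barcodes they were lower in each library, at 178, 136, 390 and 521 CPM. The part of hepatocyte RNA in these results was not tested.

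Gsta1, which is not among the 9, stood apart from Gm10639. It was at 67.9, 29.4, 8.47 and 74.5 CPM in late and at 1.38, 1.63, 8.04 and 3.44 CPM in early barcodes of wt 1, wt 2, wt 3 and null 2. The log2 difference was 4.33 (SE 0.35, adjusted p = 3.88e-09), of the opposite sign to that of Gm10639, with little difference in wt 3, where the late value rested on 1 UMI. Gsta1 is hard to count apart from Gm3776, as given above.

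Genes that make, use or regulate glutathione are listed for context, and the lists were drawn up with earlier results of these data known. A list of 22 genes held other GST and MAPEG genes and 2 others, Eef1g, a translation elongation factor subunit, and Clic1, a chloride intracellular channel protein. Of its 12 tested genes 6 rose and 0 fell in late barcodes, with neither Eef1g (0.19) nor Clic1 (0.03) called, among them Gsta1, Gstk1 (1.21, mitochondrial and peroxisomal kappa class), Gstm5 (0.99) and Gstz1 (0.92, tyrosine breakdown), given as log2 differences. Of 13 tested genes of glutathione synthesis and turnover, 8 rose and 2 fell. Gclc, the catalytic subunit of the rate-limiting ligase, rose by 1.80 and Ggct, which breaks down gamma-glutamyl peptides, by 3.01, while Dpep1, a dipeptidase of the brush border, fell by 4.45 and Slc3a2, an amino acid transporter subunit, fell by 2.13. Of 9 tested genes of the NRF2 pathway, 5 rose and 0 fell, among them Nqo1 (3.04), Txnrd1 (1.06), Nfe2l2, which encodes NRF2 (1.01), and Srxn1 (1.00). The median log2 differences were 0.62, 0.99 and 0.67 for the 3 lists, 0.22 for the 9 members and -0.07 for all genes tested.

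**Figure D3:**
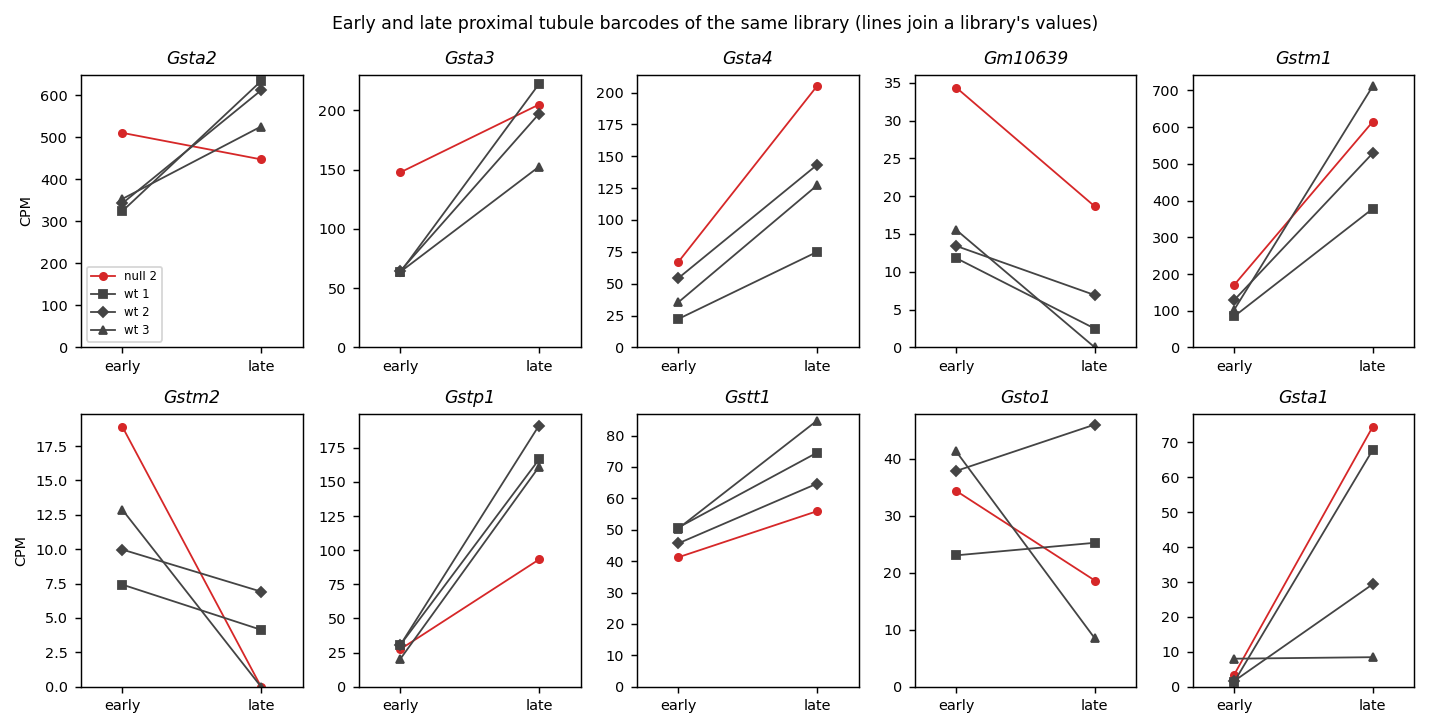
CPM (y axis, from 0) in early and late proximal tubule barcodes (x axis) of 4 tissue libraries, 1 panel per gene, with lines joining the values of a library and red for the null library. Gstp1 rose from 20.4 to 30.7 CPM in early to 93.2 to 191 CPM in late barcodes, Gm10639 fell in all 4 libraries, and Gsta1 was nearly level in wt 3 (8.04 and 8.47 CPM) and higher in late barcodes of the other 3.

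Blood cells carrying the lineage tag held few UMIs of most of the 9 genes and more Gstp1 than tissue. In ntCZC libraries (n = 10) against tissue libraries (n = 9), Gstp1 was higher and Gstm1 and Gsto1 were lower by the test. Their tissue levels too had been part of the choice of genes. The other 6 genes had 0 to 16 UMIs in ntCZC and passed the low-count filter through tissue, where they had been chosen for their levels, so a lower value there had to follow and they are given as values with no test. Over all genes the edgeR quasi-likelihood test called 66.0% of 11905, 27.5% higher and 38.5% lower in ntCZC (3274 and 4586 genes, or 2322 and 5580 with RLE scaling, which moved the median of all genes from -0.13 to -0.37 on the log2 scale), so a call in this contrast was common. The contrast is between blood and solid organs, and a lower share of a cell type and less RNA per cell cannot be told apart in it.

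Gm10639 had 0 UMIs in 13389093 over the 10 ntCZC libraries. A count of 0 allows up to 3 counts, or 0.224 CPM over the group, and tissue libraries together were at 5.20 CPM, so Gm10639 was at least 23.2-fold lower in ntCZC. Gsta2 had 1 UMI in ntCZC against 125 CPM in tissue, a ratio of 1668 with an exact 95% Poisson interval of 299 to 65894, which covers counting error only. Gsta3 and Gstm2 also had 1 UMI each, with ratios of 659 (118 to 26022) and 657 (118 to 25960.2). Gsta4 had 5 UMIs, a ratio of 174 (74.5 to 535).

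Gstm1, Gstp1 and Gsto1 were the members that blood cells held in number. Gstm1 ran from 6.19 to 56.3 CPM in ntCZC and from 118 to 364 CPM in tissue, with no overlap and a log2 difference of -2.96 (SE 0.21, adjusted p = 3.03e-10). Gsto1 ran from 6.19 to 88.9 and from 54.8 to 136 CPM, and the log2 difference was -0.79 (SE 0.22, adjusted p = 0.00362). Gstp1 averaged 65.6 CPM in ntCZC (12.4 to 114) and 35.0 CPM in tissue (21.4 to 55.5), a log2 difference of 0.96 (SE 0.22, adjusted p = 0.000696). With the replicate number as a block the calls of Gstp1 and Gsto1 were lost (adjusted p = 0.0579 and 0.122), although the numbers did not pair these libraries. The lowest ntCZC values of all 3 genes were 1 or 2 UMIs of wt 3, a library with 14 barcodes of at least 200 genes, and without it the lowest values were 13.6 CPM for Gstm1, 35.9 CPM for Gsto1 and 44.1 CPM for Gstp1, with all 3 calls unchanged. Gstt1 was at 0 in 8 of 10 ntCZC libraries and at 9.99 CPM in null 1, against 7.82 to 33.2 CPM in tissue. That library held 14 of its 16 ntCZC UMIs. In leukocyte-gated barcodes of both kinds Gstp1 was again higher (1.43, adjusted p = 2.04e-05), and the call of Gsto1 was lost (-0.39, adjusted p = 0.0953). The PBMC library held Gstp1 at 15.5, Gstm1 at 13.4 and Gsto1 at 10.5 CPM, with 1 UMI each of Gsta2 and Gstt1 and none of the other 4.

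In the lists of other genes, 1 of 17 tested genes of the GST list was higher in ntCZC, which was Clic1 (log2 difference 1.55, adjusted p = 8.22e-07) and no GST or MAPEG gene, and 10 were lower, among them Mgst3 (log2 difference -3.06), Gstz1 (-2.87), Gstm5 (-4.47) and Gstt3 (-2.53). Of 13 genes of glutathione synthesis and turnover 2 were higher and 10 lower, with Ggt1, which degrades extracellular glutathione, at 0 in ntCZC and at 64.4 CPM in tissue by mean. The counts of lower genes include Gsta1, Gstm6, Gstm7, Ggt1, Dpep1, Oplah and Nqo1, which were at or near 0 in ntCZC and passed the low-count filter through tissue, so that they had to be lower and support nothing. Gclc was at 15.3 and 70.9 CPM. Of 9 NRF2 pathway genes 1 was higher, G6pdx, the entry enzyme of the pentose phosphate pathway (log2 difference 1.22), and 5 were lower, among them Nqo1 (0.227 against 14.5 CPM).

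**Figure D4:**
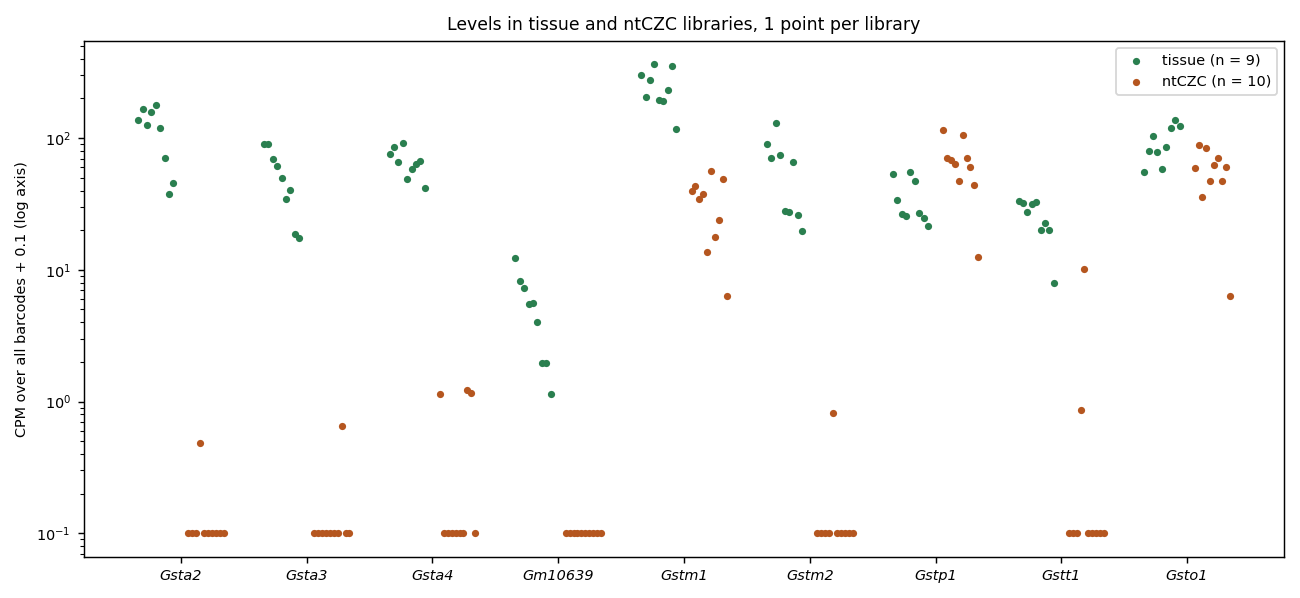
CPM over all barcodes plus 0.1 (log y axis) of the 9 genes (x axis) in 9 tissue and 10 ntCZC libraries, 1 point per library, with points at 0.1 standing for 0 UMIs. Gm10639 was at 0 in all 10 ntCZC libraries, Gstm1 did not overlap, and Gstp1 was the only gene with a higher mean in ntCZC.

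Genotype labels were also compared in classes where the choice of genes had not used the labels, and no member passed the test. The choice had used the levels of hepatocyte-, airway- and fibroblast-gated barcodes, which share their libraries with the Miox-positive barcodes. In hepatocyte-gated barcodes 8 members were tested (Gm10639 was removed by the low-count filter there and in airway- and fibroblast-gated barcodes). The edgeR test called 0.0% of 5473 genes in het against wt (165 at an unadjusted p under 0.05, and 1 by DESeq2) and 0.0548% in null against wt. In airway-gated barcodes it called 0.0346% of 8665 genes for het and 0.0% for null (432 unadjusted, and 1 by DESeq2), and in fibroblast-gated barcodes 0.0% of 6578 genes for het (428 unadjusted, and 4 by DESeq2) and 0.076% for null. DESeq2 also called no member in these 6 contrasts. Gm10639, on few UMIs, was at 0 CPM in wt and 4.17 to 5.51 CPM in het and null libraries in hepatocyte-gated barcodes. In airway-gated barcodes it was at 0 and at 0.643 to 6.75 CPM, and in fibroblast-gated barcodes the ranges overlapped.

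Gsta2 came nearest to a call. In hepatocyte-gated barcodes it averaged 80.9 CPM in het and 83.0 CPM in null against 25.9 CPM in wt, with log2 differences of 1.94 (SE 0.46, unadjusted p = 0.00101, adjusted p = 0.787) and 1.39 (SE 0.45, unadjusted p = 0.00845, adjusted p = 1.0). In fibroblast-gated barcodes it was at 69.8 and 92.6 CPM in null and at 11.6 to 41.0 CPM in wt, a log2 difference of 1.60 (SE 0.46, unadjusted p = 0.00341, adjusted p = 0.747). The het libraries lay on the other side there, at 20.7 and 0 CPM, a log2 difference of -1.03 (SE 0.55, adjusted p = 0.808). In airway-gated barcodes the log2 difference of null against wt was 1.63 (SE 0.51, unadjusted p = 0.00943, adjusted p = 0.856). Leukocyte-gated barcodes of the null libraries held Gsta2 at 55.7 and 62.6 CPM, those of het libraries at 20.6 and 23.7 CPM and those of wt libraries at 18.5 to 42.7 CPM, and the part of free RNA in these values was not tested. In airway-gated barcodes Gstt1 and Gsto1 also had an unadjusted p under 0.05 in het (log2 differences 0.82 and -0.99, edgeR adjusted p = 0.845 for both), and Gsta4 and Gsto1 in null (-1.26 and -1.05, edgeR adjusted p = 0.856 for both).

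In ntCZC, 3 members could be tested (Gstm1, Gstp1 and Gsto1), and no member was called in het against wt, null against wt or null against het. The shares of genes called were 0.107%, 0.0% and 0.0% of 9379, with 360 and 686 genes at an unadjusted p under 0.05 in the contrasts of null with wt and with het, and 13 and 21 by DESeq2. Gstp1 averaged 79.2 CPM in het, 70.7 CPM in null and 28.2 CPM in wt (log2 differences from wt of 1.15, unadjusted p = 0.0136, adjusted p = 0.506, and 1.36, unadjusted p = 0.0087, adjusted p = 0.983). Both wt libraries, at 44.1 and 12.4 CPM, were below all 8 others. The lower of them, wt 3, held 77 barcodes.

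Sex was compared in the same way, with genotype in the fit, and no member was called in any of 4 classes. Libraries labelled female and male numbered 3 and 6 in Miox-positive and in fibroblast-gated barcodes. They numbered 3 and 5 in hepatocyte-gated and 2 and 6 in airway-gated barcodes. In Miox-positive barcodes the edgeR test called Xist but not the Y-linked Ddx3y (log2 difference -5.52, adjusted p = 0.773). A lack of calls is therefore no sign that the sexes were alike. The levels in all 4 classes had been used to choose the genes, though without the sex labels. By the labels, sex also decides whether epididymis or uterus was in the pool, so these cannot be told apart, and tissue null 3, fitted as female, held epididymal barcodes as well. The shares of genes called were 0.0132% of 15141 in Miox-positive, 0.0183% in hepatocyte-gated, 0.0115% in airway-gated and 0.0152% in fibroblast-gated barcodes. Gstm2 was at 14.8 to 56.4 CPM in Miox-positive barcodes of libraries labelled female and at 24.5 to 120.0 CPM in males, with overlap (log2 difference -0.69, SE 0.27, unadjusted p = 0.0305, adjusted p = 0.773). Gstp1 ran from 21.1 to 27.7 CPM in females and from 32.2 to 62.1 CPM in males, without overlap (log2 difference -0.61, SE 0.23, unadjusted p = 0.0281, adjusted p = 0.773). In fibroblast-gated barcodes Gstp1 had a log2 difference of -0.93 (unadjusted p = 0.0381, adjusted p = 1.0), and in airway-gated barcodes Gsta2 had -1.34 (unadjusted p = 0.0383, adjusted p = 0.997). Leaving out tissue null 3 gave no call of a member in Miox-positive, hepatocyte-gated or fibroblast-gated barcodes. In airway-gated barcodes it left too few female libraries to compare.

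Across the 9 tissue libraries, the gene whose level in Miox-positive barcodes was most like that of Gm10639 among 8248 genes was Cbr1, a carbonyl reductase (Pearson r = 0.95), followed by Gsta4 (0.93), Cbr3 (0.93), Rab25 (0.92) and Cenpv (0.92). Gsta3 was at rank 8 (0.91) and Gsta2 at rank 47 (0.84). The genes most like Gsta2 were Rab34 (0.98), Pxmp2 (0.98), Khk, the fructose kinase (0.98), Bex4 (0.97) and Aamdc (0.97), with Gsta3 at rank 15 (0.96). These libraries share depth, cell makeup and genotype labels, so the values describe likeness across 9 points and carry no test.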

How the data were processed

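Libraries were made with 10x Chromium 3′ v3 chemistry. The authors deposited filtered matrices of raw UMI counts (mm10), without normalization. The matrix headers name Cell Ranger 3.0.2, whereas the submitters' processing notes list Cell Ranger 2.1.1 and Seurat. Deposited counts were summed per library and class. Barcodes needed at least 200 genes, and a class needed at least 3 markers and more than any other of 13 lists. No doublet caller and no mitochondrial limit were used in the main results: of proximal tubule-gated barcodes, 6.28% to 33.7% per library held 3 markers of another list. CPM is the UMI count scaled to a common total over the same barcodes.

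Tests used edgeR 4.0.16 (quasi-likelihood, TMM, filterByExpr, Benjamini-Hochberg over all genes tested at 0.05, R 4.3.3) on sums of libraries with at least 20 barcodes, with sex as covariate for genotype and for ntCZC against tissue, genotype for sex, and library for tubule segments. DESeq2 1.42.0 was an alternative. The scripts were checked on simulated data. Members, gene lists and comparisons were chosen with earlier results of these data known. The rule for named genes was the 9 members and, from each pathway list, up to 4 genes with the smallest adjusted p, and the 5 genes most like Gm10639 and Gsta2. Gsta1 beyond the list and Gstp3 were described after their values were seen. Among 25 pairs of replicates the lowest chi-square per degree of freedom was 4.11, so none was counted as 1 sample. Gene positions came from GENCODE vM21, and upstream sequences from RefSeq (GRCm38.p6). Alternatives were RLE scaling, no low-count filter, other barcode limits, a replicate block, and leaving out each library. Organs were not assigned by hashtag here. Intervals cover counting error only.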

Additional observations from a re-analysis of the deposited data

Results flagged for a closer look

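Dixon's test over 63 sets of 4 or 5 libraries flagged 9 values, and chance flags about 1 in 20. In tubule-gated barcodes of tissue wt, Gm10639 was lowest in replicate 5 at 3.22 CPM (4 UMIs), while the other 4 were at 10.5 to 12.9 CPM. In ntCZC het, Gstp1 was highest in replicate 1 at 114 CPM against 63.8 to 70.0 CPM in the other 3. The other flags were single libraries above others at 0: Gsta2 at 0.385 CPM and Gstt1 at 0.769 CPM in het 4, Gsta4 at 1.05 CPM in het 1, Gsta3 at 0.557 CPM and Gsta4 at 1.11 CPM in null 4, and Gstm2 at 0.713 CPM and Gstt1 at 9.99 CPM in null 1.

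In Miox-positive barcodes of the tissue libraries without a group, some of the 9 genes lay above the whole wt range. No share over all genes is given for these single libraries, so nothing is read from how many did. The library titled het with a null strain entry held Gsta2 at 489.9 CPM (wt 131 to 245), Gsta3 at 151 CPM (wt 38.9 to 62.9), Gstt1 at 72.6 CPM (wt 13.5 to 39.99) and Gm10639 at 9.47 CPM (wt 2.96 to 8.50). The library titled null with a wt strain entry held Gsto1 at 122 CPM (wt 54.9 to 112). The other 5 genes of the first library and the other 8 of the second were inside the wt range. Gsta4 was at 36.5 and 43.8 CPM and Gstm2 at 17.0 and 28.2 CPM, in that order. In the second library Gsta2 was at 184 CPM, Gsta3 at 61.7 CPM and Gm10639 at 4.53 CPM. Cell makeup differed too. Of Miox-positive barcodes of the first library, 56.0% were proximal tubule-gated, against 31.8% to 51.4% in wt. Leukocyte-gated were 6.995%, against 23.2% to 44.8% in wt. In the second library these shares were 30.4% and 28.8%. The part of cell makeup in the levels of both libraries was not tested.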

How the results depend on the processing

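For ntCZC against tissue, 7 to 9 members were called under the alternatives and 8 or 9 when a library was left out, but 6 of them passed the filter through tissue, so these counts are no sign of stability. Of the other 3, Gstm1 was called in 27 of 27 alternatives, Gstp1 in 26 and Gsto1 in 25. Gm10639 was removed by the low-count filter, and so not tested, in 7 of 27 alternatives, and Gsto1 lost its call in leukocyte-gated barcodes. Replicate numbers did not pair ntCZC with tissue libraries (6 pairs, r from -0.0681 to 0.0596, 0 of which were the best match), and with the replicate block 7 members were called, Gstp1 and Gsto1 not (adjusted p = 0.0579 and 0.122). Numbers did not pair genotypes either (Miox-positive, 5 pairs, r from -0.317 to 0.0952; ntCZC, 8 pairs, -0.229 to 0.238, 3 above 0.1), and the block left 0 members called in hepatocyte-, airway- and fibroblast-gated barcodes and in ntCZC. For late against early tubule, 5 to 7 members were called, and 4 to 6 when a library was left out, with 4 without wt 1 or wt 2. The Gsta2 difference ran from -0.0203 (without wt 1) to 0.46 (without null 2) when a library was left out, and the cause was not tested. Genes called there fell from 2837 to 1756 with DESeq2, 1049 without wt 1 and 1005 without wt 2. Sex within class stayed at 0 members in every alternative, and genotype within class reached 1 with no low-count filter (Gsta2, null against wt in fibroblast-gated barcodes). Members above all wt libraries in Miox-positive barcodes were 5 (4.33% of all genes), and 3 in proximal tubule-gated barcodes (1.95% of all genes). The count in Miox-positive barcodes was 5 to 6 when a library was left out, for which no share over all genes is given. This contrast chose the genes, so these counts are no sign of stability. Over all genes, with no low-count filter, DESeq2 or other settings, calls ranged from 2 to 50 (sex, Miox-positive), 0 to 15 (hepatocyte), 0 to 58 (airway) and 1 to 50 (fibroblast), and for het and null against wt from 0 to 71 and 0 to 30 (hepatocyte), 0 to 220 and 0 to 79 (airway), 0 to 140 and 0 to 59 (fibroblast), 0 to 100 and 0 to 132 (Miox-positive) and 2 to 106 and 0 to 64 (ntCZC), and from 0 to 60 for null against het in ntCZC. Depth limits Gm10639 in hepatocyte- and fibroblast-gated barcodes, with 0 to 8 UMIs per library.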

Other observations

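Gsta1, in the same alpha-class cluster as Gm10639, had its highest median in gastric-gated barcodes. In gastric-gated barcodes it ran from 286 to 2669 CPM with a median of 849 CPM (n = 9 tissue libraries), and in proximal tubule-gated barcodes from 2.94 to 15.4 CPM with a median of 7.73 CPM. Gsta4 and Gsto1 had their highest medians in the same gate, at 788 and 1216 CPM. In hepatocyte-gated barcodes Gsta1 was at 2.76 to 26.2 CPM (n = 8), and in leukocyte-gated barcodes at 1.79 to 18.7 CPM.

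Gstp3 was singled out after its values were seen. The PBMC library held Gstp3 at 19.7 CPM (28 UMIs), above its pooled level of 2.91 CPM in ntCZC and 4.24 CPM in tissue. Gstp3 shared no window of its last 500 bases with another gene. The ntCZC and PBMC libraries came from mice of different ages, so source and age cannot be told apart.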
